A study of Mus musculus with 4 samples.

Results

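The collagen genes were taken as all genes whose symbol is Col, a number, the letter a and a number, named through the RefSeq accession of each array probe. The rule found 43 genes among 20832 named genes of the array, 11 of them fibrillar, 6 of the basement membrane type and 26 of other types. For a gene with several probes, which held for 14 of the 43, the probe with the highest mean log2 signal was kept. Col12a1 had no probe named this way and was not analysed here.

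The tested samples were colons of STAP-2-/- mice, which lack the adaptor protein STAP-2, and the samples they were set against were colons of wild-type (WT) mice. All mice were C57BL/6J, aged 14 weeks, and received 1.75% DSS (dextran sulfate sodium), which damages the gut lining and causes colitis. For the length of DSS exposure the treatment field of the labels states 3 days, whereas the sample descriptions state 7 days. Each of 4 arrays carried RNA of the entire colon pooled from 3 mice, with pools 1 and 2 of each genotype, so no group without DSS and no single animal was measured. Both pools of a genotype are labelled as biological replicates, and no label ties a STAP-2-/- pool to the WT pool of the same number beyond that number. The p-values by genotype measure the spread between these 4 pools within their genotype, not between animals. Those of pool 2 against pool 1 measure how far the pool difference disagreed between the genotypes.

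Collagens are proteins, most of them secreted and some transmembrane, whose chains wind into a triple helix of repeated glycine-led units. Fibrillar collagens assemble into the cables that give the gut wall its strength, and type IV collagens form the sheet on which epithelium, vessels and muscle rest. Other types decorate fibrils, link them to cells or anchor the epithelium. In the gut most fibrillar collagen is made by fibroblasts and smooth muscle cells, and ulcer healing and fibrosis both involve its deposition.

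Values are log2 levels, the log2 processed signal minus the 75th percentile of the array. A level of 0 is the 75th percentile itself, and probes differ in brightness for the same amount of RNA, so levels are compared between arrays and never between genes. The 75th percentile signal was 2280 and 2348 on the STAP-2-/- arrays and 2134 and 2215 on the WT arrays, and all 4 lay on 1 slide read in 1 scan. Stap2 itself had levels of -6.63 and -7.72 on the STAP-2-/- arrays, neither well above background, against 2.92 and 2.98 in WT, where it was thus at least 722-fold higher. For this bound the dim arrays were set to the lowest signal that counted as well above background on them, unless the probe itself read higher. All 7 markers of colon epithelium (Epcam, Cdh1, Krt8, Krt20, Cdx2, Car1 and Slc26a3) and all 7 fibroblast markers were tested, while the cartilage markers Matn1, Matn3 and Cnmd were not well above background on any array. In such bulk samples, fewer cells of a type and less RNA per cell cannot be told apart.

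Sequence upstream of 3 genes that the comparisons below turn on is shown first: the fibrillar genes Col1a2 and Col3a1, and Col4a2 of the basement membrane. RefSeq promoter windows (GRCm38.p6, 250 bases before to 50 after the annotated start) were found for 35 of the 43 genes. Capitals mark matches on either strand to the CCAAT box (CCAAT), the GC box (GGGCGG), the TATA box (TATAAA), the AP-1 motif (TGANTCA) and the SMAD element (CAGACA), and in these windows no match of 1 motif overlapped a match of another. The stretches of Col1a2 (chr6:4505498-4505617, plus strand) and Col3a1 (chr1:45311418-45311537, plus strand) end at the base before the start. That of Col4a2 (chr8:11312755-11312784, plus strand) is shown because Col4a1 starts 21 bases away on the opposite strand, head to head. The annotated Col4a1 start lies past that of Col4a2, so the beginnings of the transcripts overlap. The stretch shown is thus upstream of the Col4a2 start but downstream of the Col4a1 start.
Col1a2: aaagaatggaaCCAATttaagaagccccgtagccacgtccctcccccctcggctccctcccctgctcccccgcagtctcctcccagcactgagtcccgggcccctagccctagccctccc
Col3a1: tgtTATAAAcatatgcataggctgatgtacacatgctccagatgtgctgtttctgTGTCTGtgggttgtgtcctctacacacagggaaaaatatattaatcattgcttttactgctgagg
Col4a2: cgCCGCCCgaggagctccCCAATttgttgg
Counting the first listed window of each gene, the GC-box letters GGGCGG occurred for 22 of the 35 collagen genes, against 35.9% of all 27025 genes of the table. CCAAT occurred in 12 of 35 against 37.9% of all, TATAAA in 5 against 14.2%, CAGACA in 8 against 21.0% and TGANTCA in 1 against 7.93%. These are matches of letters and not sites, and no match says only that the letters are not in the window.

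By limma, no collagen gene reached an adjusted p of 0.05 between STAP-2-/- and WT colons. Of 43 genes, 31 could be tested because at least 1 genotype had both arrays well above background for the probe, and 28 of these were well above background on all 4 arrays. Among all 15562 genes tested, 0% passed, and among the 31 collagens 0 passed as well. At an unadjusted p under 0.05, 0 collagens were lower in STAP-2-/- (1.29% of all genes) and 0 were higher (0.797% of all genes). The mean was lower in STAP-2-/- than in WT for 27 of the 31, against 51.7% of all tested genes. Within pool 2, 23 of the 31 were lower in STAP-2-/- (51.8% of all genes), and within pool 1, 16 were (50.4% of all genes). The median log2 difference was -0.14 for the collagens and -0.0068 for all genes. Much of this lean rested on 1 array: without WT 2 the count of 27 became 16 and the median -0.0033. Genotype fits with 1 array left out hold no pool term, so part of the pool difference enters them.

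**Figure D1:**
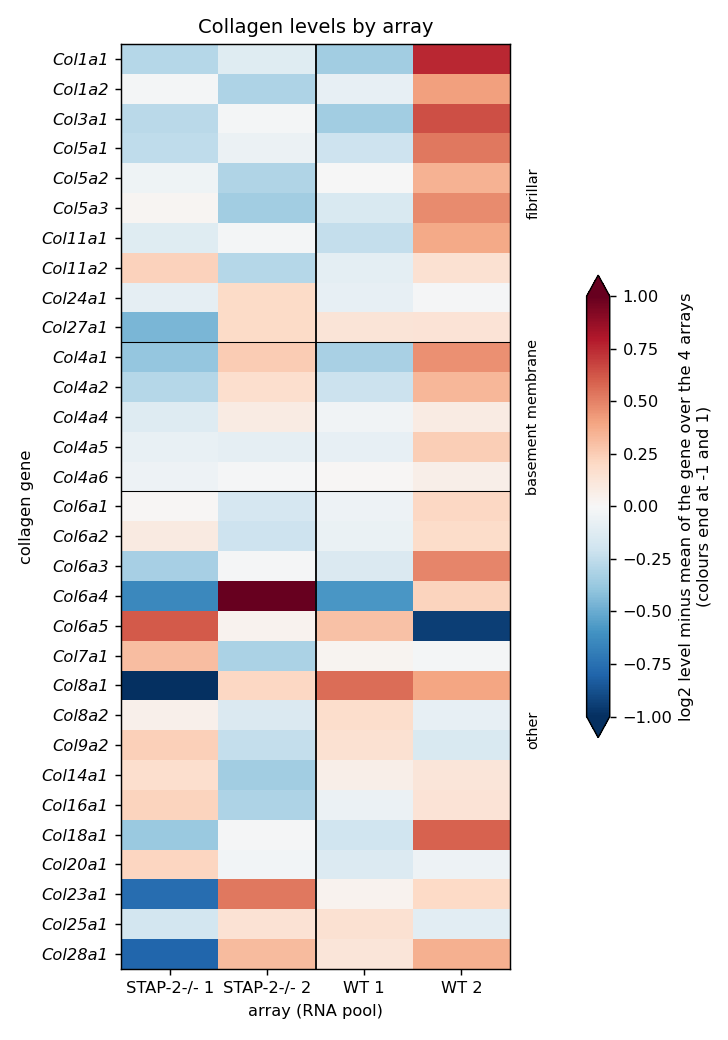
Log2 level of each of the 31 tested collagen genes (rows, grouped by type) on each array (columns), as the difference from the mean of the gene over the 4 arrays; the colour scale ends at -1 and 1. WT 2 is the highest array for 16 of the 31 genes, and Col8a1 on STAP-2-/- 1 and Col6a4 on STAP-2-/- 2 lie just past the ends of the scale.

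Most fibrillar collagens had lower levels in STAP-2-/- than in WT within pool 2, and levels close to WT within pool 1. Of 10 tested, 6 were at least 1.5-fold lower in STAP-2-/- 2 than in WT 2, against 4.30% of all genes, and 0 were that much higher (3.36% of all genes). In pool 1 the same threshold was passed downward by 1 fibrillar gene, Col27a1, against 3.55% of all genes, and upward by 0 (3.01% of all genes). The median difference of the 10 was -0.62 in pool 2 and 0.063 in pool 1, while over all genes it was -0.011 and -0.0025. Each of these sets 1 array against another, so the spread between pools is not in it. With 4 arrays, no replicate is left to ask whether the genotype difference itself differed between the pools (the interaction), which was not tested.

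Type I collagen, the main cable of the gut wall, is built from the chains of Col1a1 (chromosome 11) and Col1a2 (chromosome 6). Col1a1 had log2 levels of 2.05 and 2.21 on STAP-2-/- arrays 1 and 2, against 1.99 and 3.09 on WT arrays 1 and 2. Col1a2 stood at 3.83 and 3.55 in STAP-2-/- and at 3.77 and 4.26 in WT. For both chains WT 2 was the highest array and the genotypes overlapped, because WT 1 lay below STAP-2-/- 1. The difference was -0.41 (SE 0.42) for Col1a1 and -0.32 (SE 0.24) for Col1a2, each with a limma adjusted p of 1.0. Within pool 2 it was -0.88 and -0.71, and within pool 1 0.060 and 0.067. Without WT 2 the difference of Col1a1 became 0.145 and that of Col1a2 -0.076.

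Col3a1 encodes type III collagen, which forms mixed fibrils with type I and is rich in pliable and healing tissue. Its levels were 3.12 and 3.37 in STAP-2-/- pools 1 and 2, against 3.05 and 4.03 in WT pools 1 and 2. The order of the arrays was that of Col1a1, with WT 2 at the top and WT 1 at the bottom. The genotype difference was -0.30 (SE 0.39, limma adjusted p 1.0), and -0.67 within pool 2 against 0.073 within pool 1. Without WT 2 it became 0.20.

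Type V collagen sits inside the type I fibril and limits its width, and its chains are encoded by Col5a1, Col5a2 and Col5a3. Col5a1 read -0.61 and -0.42 in STAP-2-/- and -0.56 and 0.17 in WT. Col5a2 read -3.14 and -3.40 in STAP-2-/- and -3.10 and -2.75 in WT. Col5a3 read -0.72 and -1.08 in STAP-2-/- and -0.89 and -0.26 in WT. WT 2 was again the highest array for all 3 chains. Col5a2 was the only tested fibrillar gene with both STAP-2-/- arrays below both WT arrays, a pattern found in 3 of 31 collagens and 13.3% of all genes. Its difference was -0.34 (SE 0.20), with -0.65 in pool 2 and -0.040 in pool 1. Col5a1 differed by -0.32 (SE 0.30) and Col5a3 by -0.32 (SE 0.29), and all 3 had a limma adjusted p of 1.0. Without WT 2, Col5a1 differed by 0.046, Col5a2 by -0.17 and Col5a3 by -0.0099. Col5a2 is the next protein-coding gene to Col3a1 on chromosome 1, and the 2 genes differed in the order of the STAP-2-/- arrays.

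The remaining fibrillar genes are those of cartilage and minor fibrils. Col11a1 and Col11a2, whose chains make up type XI collagen of cartilage fibrils, were dim, and both missed the background threshold on WT 1. Col11a1 read -6.16 and -6.05 in STAP-2-/-, against -6.27 and -5.66 in WT. Col11a2 read -5.95 and -6.47 in STAP-2-/-, against -6.28 and -6.03 in WT. Neither separated the genotypes. Col24a1, a fibrillar collagen of bone and cornea, read -4.71 and -4.43 in STAP-2-/-, against -4.71 and -4.63 in WT, and was the 1 tested fibrillar gene with a higher mean in STAP-2-/- (0.10, SE 0.16). Col27a1, a fibrillar collagen of cartilage, read -3.67 and -3.02 in STAP-2-/- and -3.08 and -3.07 in WT, so its low array was STAP-2-/- 1. Col2a1, the main collagen of cartilage, was not well above background on any array.

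**Figure D2:**
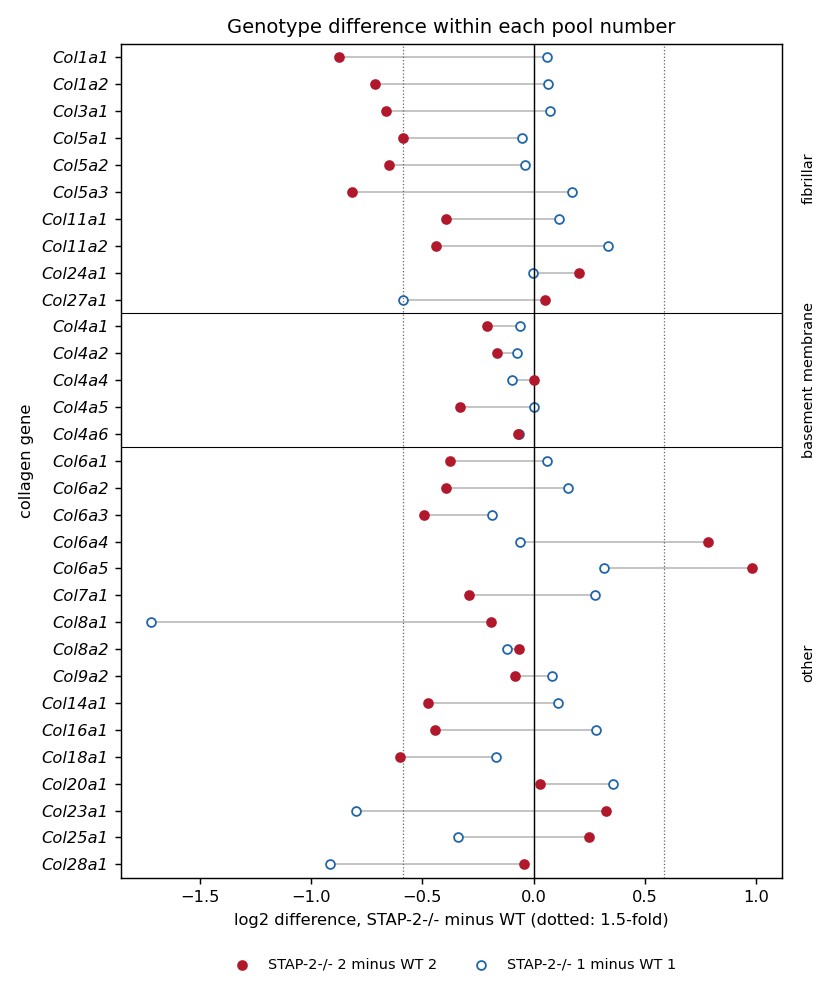
Log2 difference of STAP-2-/- minus WT for each tested collagen gene, within pool 2 (filled) and within pool 1 (open), with dotted lines at 1.5-fold in either direction; each point is 1 array minus another. For Col1a1, Col1a2, Col3a1, Col5a1, Col5a2 and Col5a3 the pool 2 points lie at or beyond the left dotted line while the pool 1 points lie between -0.052 and 0.17, and Col8a1 shows the opposite arrangement.

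For type IV collagen of basement membranes, the median difference was -0.12 between genotypes and 0.17 between pools. Of 5 tested genes, 0 were 1.5-fold apart between genotypes in either pool. Col4a1 and Col4a2, the chains of the ubiquitous basement membrane network, gave nearly parallel levels. Col4a1 read 0.20 and 0.84 in STAP-2-/- pools 1 and 2, against 0.26 and 1.05 in WT pools 1 and 2. Col4a2 read 0.19 and 0.64 in STAP-2-/-, against 0.26 and 0.81 in WT. Both pool 2 arrays lay above both pool 1 arrays for each gene, and the genotypes overlapped. The genotype difference was -0.13 (SE 0.38) for Col4a1 and -0.12 (SE 0.28) for Col4a2, with limma adjusted p of 1.0. Within pools 1 and 2 it was -0.061 and -0.21 for Col4a1, and -0.075 and -0.16 for Col4a2. With 1 array left out the fit held no pool term, so part of the pool difference entered it. Without STAP-2-/- 1 the differences of Col4a1 and Col4a2 were 0.185 and 0.107, and without WT 2 they were 0.26 and 0.15. Without WT 1 they stayed negative, at -0.53 and -0.39.

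The other type IV chains are known from kidney, eye, ear and smooth muscle. Col4a5 read -1.83 and -1.84 in STAP-2-/-, against -1.83 and -1.51 in WT, with WT 2 alone apart. Col4a6, the smooth muscle chain that lies next to Col4a5 on chromosome X, read -1.95 and -1.91 in STAP-2-/-, against -1.89 and -1.84 in WT. The genotypes of Col4a6 did not overlap, yet the difference was -0.069 (SE 0.13). Col4a4 read -4.64 and -4.42 in STAP-2-/- and -4.54 and -4.43 in WT. Col4a3 was well above background on both pool 1 arrays, at -5.61 in STAP-2-/- and -5.83 in WT, and on neither pool 2 array, at -6.96 and -6.66. For Col4a3, pool 1 was at least 1.91-fold higher than pool 2 by the same kind of bound as for Stap2, and the gene was outside the genotype test.

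Among the other types, type VI collagen forms beaded microfilaments around fibroblasts, muscle and nerve. Col6a1 read 2.56 and 2.38 in STAP-2-/-, against 2.50 and 2.75 in WT. Col6a2, its neighbour on chromosome 10, read -0.56 and -0.86 in STAP-2-/-, against -0.72 and -0.47 in WT. Col6a3, which with them makes the classical filament, read 1.03 and 1.36 in STAP-2-/-, against 1.22 and 1.85 in WT. WT 2 was the highest array for all 3, as for the fibrillar chains, and the groups overlapped. The genotype differences were -0.16 (SE 0.17), -0.12 (SE 0.19) and -0.34 (SE 0.28), and within pool 2 they were -0.38, -0.40 and -0.49, all short of 1.5-fold.

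The chains Col6a4, Col6a5 and Col6a6 lie in a row on chromosome 9, and the tested ones, Col6a4 and Col6a5, did not follow the classical chains. Col6a4 read -4.21 and -2.57 in STAP-2-/- pools 1 and 2, against -4.15 and -3.35 in WT. Col6a5 read -5.57 and -6.14 in STAP-2-/-, against -5.89 and -7.13 in WT, where WT 2 was not well above background. Both had a higher mean in STAP-2-/-, by 0.36 (SE 0.67) and 0.65 (SE 0.50), with limma adjusted p of 1.0. The value of Col6a5 rests in part on the dim WT 2 array. It was 0.198 with normexp background correction and 0.029 without WT 2. Within pool 2, Col6a4 was higher in STAP-2-/- by 0.78, past 1.5-fold. Col6a5 was higher by at least 0.46 (1.38-fold), with its dim WT 2 value set to the lowest signal well above background. Col6a6 was not well above background on any array.

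Col8a1, a short-chain collagen of vessel walls and remodelled tissue, had the lowest difference of all 31 members. It read -3.14 and -1.77 in STAP-2-/- pools 1 and 2, against -1.42 and -1.58 in WT pools 1 and 2. The genotypes did not overlap, and the array that stood apart was STAP-2-/- 1. The difference was -0.95 (SE 0.51, limma adjusted p 1.0), with -1.72 in pool 1 and -0.19 in pool 2. Without STAP-2-/- 1 it became -0.27. Col8a2, its partner chain, read -2.93 and -3.13 in STAP-2-/-, against -2.81 and -3.06 in WT, and differed by -0.091 (SE 0.17).

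STAP-2-/- 1 was also the lowest array for Col23a1 and Col28a1. Col23a1, a transmembrane collagen, read -3.13 and -1.84 in STAP-2-/-, against -2.34 and -2.17 in WT. Col28a1, known from mouse nerve where it surrounds glia, read -5.84 and -4.73 in STAP-2-/-, against -4.92 and -4.68 in WT. With Col8a1 and Col27a1 these were the 4 of 31 members at least 1.5-fold lower in STAP-2-/- 1 than in WT 1. Over all genes that share was 3.55%. None of the 4 was among the 7 of 31 members that much lower in STAP-2-/- 2 than in WT 2 (4.30% of all genes). A second probe of Col23a1 that was well above background on all 4 arrays differed by -0.010 between genotypes, against -0.24 for the probe kept. In pool 1 the second probe read -3.63 in STAP-2-/- and -3.25 in WT, short of 1.5-fold.

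Of the collagens that lie on fibril surfaces, Col14a1 read 0.23 and -0.29 in STAP-2-/-, against 0.12 and 0.19 in WT. Its 2 probes disagreed, with a genotype difference of -0.18 (SE 0.22) for the probe kept and 0.21 for the other. Col16a1 read 2.12 and 1.59 in STAP-2-/-, against 1.84 and 2.03 in WT, and differed by -0.082 (SE 0.24). Col20a1 read -2.89 and -3.13 in STAP-2-/-, against -3.24 and -3.16 in WT, and was the 1 member with both STAP-2-/- arrays above both WT arrays (11.5% of all genes). Its difference was 0.19 (SE 0.15), and a second probe gave 0.17. Col9a2, a type IX chain of cartilage, read -2.51 and -2.98 in STAP-2-/- and -2.59 and -2.90 in WT, with almost no genotype difference (-0.00083, SE 0.24).

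The collagens that join the epithelium to its matrix were also measured. Col18a1, a basement membrane collagen that yields endostatin, read 0.56 and 0.92 in STAP-2-/-, against 0.73 and 1.52 in WT. It differed by -0.38 (SE 0.33, limma adjusted p 1.0) and by -0.60 within pool 2, where it was the 1 member outside the fibrillar type that passed 1.5-fold downward. A second Col18a1 probe gave -0.34. Col7a1, the anchoring fibril beneath stratified epithelia, read -2.63 and -3.25 in STAP-2-/-, against -2.90 and -2.96 in WT, a difference of -0.0062 (SE 0.26). Col17a1, of hemidesmosomes, was not well above background on any array, and Col15a1, the relative of Col18a1, was too dim to be tested. Col25a1, a transmembrane collagen of neurons, read -5.70 and -5.37 in STAP-2-/-, against -5.36 and -5.62 in WT.

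Of the 12 members not tested, Col2a1, Col6a6, Col9a3, Col10a1, Col13a1, Col17a1 and Col19a1 were not well above background on any array. By the probe kept, Col9a1 was so on STAP-2-/- 2 alone and Col15a1 on WT 2 alone, while a second Col15a1 probe was so on STAP-2-/- 2 and WT 1. Col22a1 was well above background on both pool 2 arrays and Col4a3 on both pool 1 arrays, while Col26a1 was so on STAP-2-/- 1 and WT 2.

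Pool 2 was then set against pool 1 with genotype as a further term in the limma model. No collagen passed the adjusted p of 0.05, and neither did any of the 15562 genes (0%). At an unadjusted p under 0.05, 5 of 31 collagens were higher in pool 2, against 10.4% of all genes, and 2 were lower, against 14.4%. The 5 were Col4a1, Col4a2, Col6a3, Col6a4 and Col18a1, and the 2 were Col6a5 and Col9a2. Both pool 2 arrays lay above both pool 1 arrays for 14 collagens, against 26.4% of all genes, and below them for 4, against 36.0%. The median difference was 0.16 over the 31 members and -0.041 over all genes. By type it was 0.25 for fibrillar, 0.17 for basement membrane and 0.0043 for other collagens. Since both genotypes hold 1 array per pool and the pool number follows the place on the slide, pool and slide position cannot be told apart. The WT arrays lay at places 1 and 3 and the STAP-2-/- arrays at 2 and 4. Within a pool, genotype and slide position thus cannot be told apart either.

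Col4a1 was 1.64-fold higher in pool 2 (log2 difference 0.71, SE 0.10, limma adjusted p 0.164), by 0.64 within STAP-2-/- and 0.79 within WT. Col4a2 was 1.41-fold higher (0.50, SE 0.098, limma adjusted p 0.171), by 0.45 and 0.54. The differences of this head-to-head pair thus had the same order in both genotypes, with Col4a1 the larger. Col6a4 had the highest pool difference of the members, 1.22 (SE 0.26, limma adjusted p 0.171), with 1.64 in STAP-2-/- and 0.80 in WT. Col6a5, its neighbour, was lower in pool 2, at -0.91 (SE 0.21, limma adjusted p 0.177), with -0.57 in STAP-2-/-. This value rests in part on the dim WT 2 array, and with that array at the lowest signal well above background the pool difference was -0.65 and that within WT -0.72. With normexp background correction it was -0.19. Col18a1 and Col6a3 were higher in pool 2 by 0.57 (SE 0.16) and 0.48 (SE 0.13), and Col9a2 was lower, at -0.39 (SE 0.11), each with a limma adjusted p of 0.188. A second Col18a1 probe gave 0.33.

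For the fibrillar collagens the median pool difference was higher in WT than in STAP-2-/-. All 10 were higher in WT 2 than in WT 1, 4 of them by at least 1.5-fold (5.45% of all genes) with the dim WT 1 values of Col11a1 and Col11a2 set to the lowest signal well above background, and 6 of 10 were higher in STAP-2-/- 2 than in STAP-2-/- 1, 1 of them by at least 1.5-fold (10.7% of all genes). Over all 31 members the counts past 1.5-fold were 6 higher and 1 lower (11.0% of all genes) in STAP-2-/- 2, and 8 higher and 1 lower (5.44% of all genes) in WT 2. As measured, Col11a1 would be a further gene past 1.5-fold in WT 2. Col1a1 was higher in pool 2 by 0.17 within STAP-2-/- and by 1.11 within WT. Col3a1 was higher by 0.25 within STAP-2-/- and by 0.99 within WT. Col1a2, in contrast, differed by -0.29 within STAP-2-/- and 0.49 within WT. The median was 0.14 within STAP-2-/- and 0.55 within WT, and whether the genotypes differ in it was not tested, since each holds 1 pair of arrays.

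**Figure D3:**
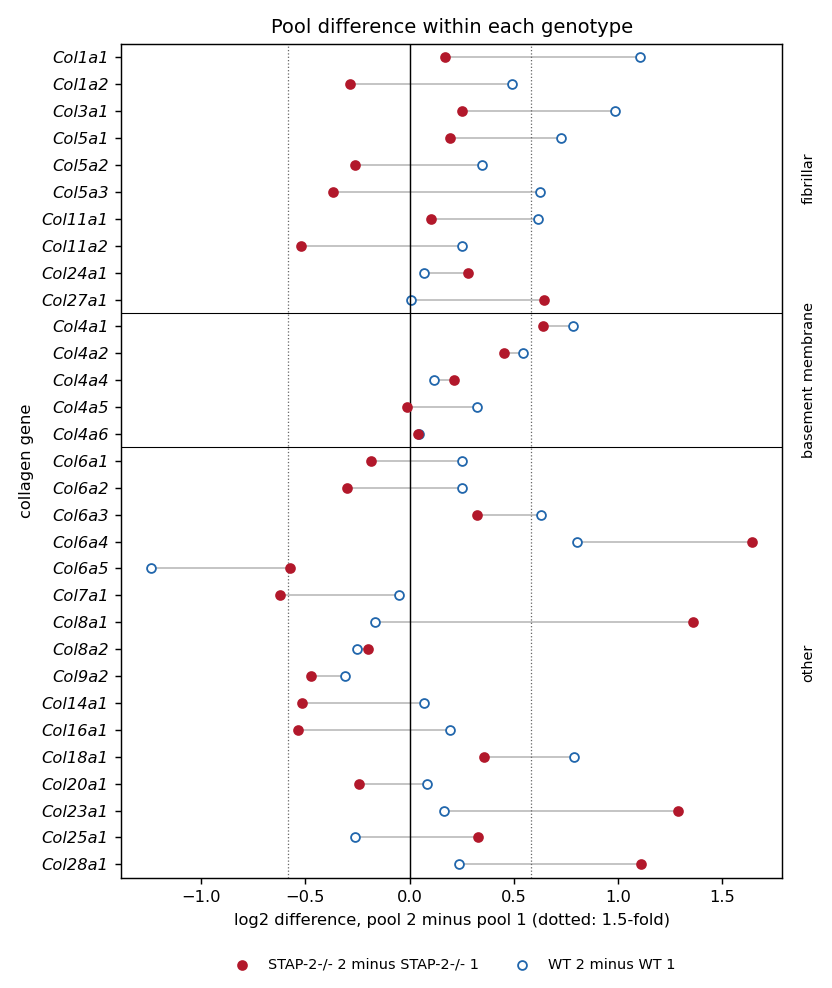
Log2 difference of pool 2 minus pool 1 for each tested collagen gene, within STAP-2-/- (filled) and within WT (open), with dotted lines at 1.5-fold in either direction; each point is 1 array minus another. The points of Col4a1 and Col4a2 lie close together to the right of 0, the open WT points of Col1a1 and Col3a1 lie furthest right among the fibrillar genes, and Col8a1, Col23a1 and Col28a1 are far right only in STAP-2-/-.

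Genes that make, mature, bind or break down collagen were read in the same genotype fit, and none of the listed genes passed an adjusted p of 0.05. Among 19 genes for folding and modification of the chains in the endoplasmic reticulum, 11 had a lower and 8 a higher mean in STAP-2-/-, with a median of -0.050. Plod2, the lysyl hydroxylase that prepares cross-links, read -3.01 and -2.46 in STAP-2-/-, against -2.29 and -2.11 in WT (-0.54, SE 0.24). P3h1, a prolyl hydroxylase, read 0.60 and 0.71 in STAP-2-/-, against 0.44 and 0.13 in WT (0.38, SE 0.17). Fkbp10, a chaperone of collagen, averaged 0.18 ± 0.20 in STAP-2-/- and 0.54 ± 0.12 in WT (SD, n = 2 each). None of the 3, which were named for their small genotype p, overlapped between genotypes. P3h1 was the one higher in STAP-2-/- (11.5% of all genes) and the others were lower (13.3% of all genes). Serpinh1, the collagen chaperone HSP47, was picked out after its values were seen, and its arrays ran in the order of Col4a1 and Col18a1. It read 0.84 and 1.37 in STAP-2-/-, against 1.02 and 2.10 in WT.

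Outside the cell, all 13 tested genes for trimming and cross-linking of collagen had a lower mean in STAP-2-/-, with a median of -0.27, against 51.7% of all genes below 0. The median was -0.39 within pool 2 and -0.10 within pool 1, and 11 of the 13 were highest on WT 2 (19.4% of all genes). Bmp1, which cuts off the tail of procollagen, read 0.11 and -0.00037 in STAP-2-/-, against 0.30 and 0.35 in WT. Pcolce, the enhancer of Bmp1, read 2.64 and 2.55 in STAP-2-/-, against 2.64 and 3.09 in WT, and so kept to the pattern of WT 2 alone high. Pxdn, which cross-links type IV collagen, read 0.11 and -0.068 in STAP-2-/-, against 0.25 and 0.43 in WT. The last 2 differed by -0.27 (SE 0.21) and -0.32 (SE 0.15).

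Between the pools, 6 of these 13 genes had an unadjusted p under 0.05, 4 higher (10.4% of all genes) and 2 lower (14.4% of all genes) in pool 2, with 0 past the adjusted threshold. Lox, the lysyl oxidase, was higher in pool 2 by at least 1.12, with its dim STAP-2-/- 1 value set to the lowest signal well above background. The transglutaminase gene Tgm2 was higher by 0.83 (SE 0.095), and both were named after their values were seen. Lox, which was well above background on 3 of the 4 arrays, read -6.91 and -5.32 in STAP-2-/- pools 1 and 2, against -5.99 and -4.81 in WT pools 1 and 2. Tgm2 read 2.46 and 3.28 in STAP-2-/-, against 2.63 and 3.47 in WT.

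Of 11 tested proteins that bind fibrils, 9 had a lower mean in STAP-2-/-, with a median of -0.24. Lum, which spaces fibrils and is also 1 of the fibroblast markers, read 2.08 and 1.81 in STAP-2-/-, against 2.17 and 2.67 in WT. Sparc, a collagen-binding matricellular protein, read 5.63 and 5.11 in STAP-2-/-, against 5.71 and 5.93 in WT. Aspn read -0.76 and -0.26 in STAP-2-/-, against -0.16 and 0.11 in WT. For Sparc, both STAP-2-/- arrays lay below both WT arrays, as they did for Lum and Aspn (13.3% of all genes), 3 genes named for their small genotype p, with differences of -0.44 (SE 0.24), -0.48 (SE 0.24) and -0.48 (SE 0.24).

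Of 15 laminins, nidogens and proteoglycans that share the basement membrane with type IV collagen, 11 had a lower mean in STAP-2-/-, with a median of -0.16. Nid1, which links laminin to type IV collagen, read 0.96 and 1.10 in STAP-2-/-, against 1.34 and 1.52 in WT (-0.40, SE 0.15). Lama3, the laminin chain of epithelial anchorage, read -0.73 and -0.87 in STAP-2-/-, against -1.36 and -1.10 in WT (0.43, SE 0.16). Lamc3 differed by 0.24 (SE 0.17). Differences of both signs thus occurred, and none passed the test. Between pools 7 of the 15 had an unadjusted p under 0.05, 5 of them higher (10.4% of all genes) and 2 lower (14.4% of all genes) in pool 2.

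Of 9 tested collagen receptors, 8 had a lower mean in STAP-2-/-, with a median of -0.094. Itga1, the integrin chain for type IV collagen, differed by -0.22 (SE 0.13), Itga11, for fibrillar collagen on fibroblasts, by -0.23 (SE 0.18), and the receptor kinase gene Ddr2 by -0.13 (SE 0.13). Of 5 tested collagen-degrading proteases, 4 had a lower mean in STAP-2-/-, with a median of -0.077. Mmp13, the main interstitial collagenase of mice, read -3.48 and -1.23 in STAP-2-/- pools 1 and 2, against -2.89 and -0.56 in WT pools 1 and 2. Pool 2 was higher by 2.29 (SE 0.097, 4.89-fold, limma adjusted p 0.161), with both its arrays above both pool 1 arrays (26.4% of all genes). The genotype difference of Mmp13 was -0.63 (SE 1.17), with -0.59 within pool 1 and -0.66 within pool 2. It came from the fit without pool number, so its SE holds the pool difference. Ctsk differed by -0.25 (SE 0.33) and Mmp14 by -0.077 (SE 0.16).

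Of 11 genes of transforming growth factor beta signalling, a driver of collagen transcription, 8 had a lower mean in STAP-2-/-, with a median of -0.23. Tgfb2 read -1.08 and -1.14 in STAP-2-/-, against -0.59 and -0.74 in WT (-0.45, SE 0.14, limma adjusted p 1.0). Both its STAP-2-/- arrays lay below both WT arrays (13.3% of all genes). Tgfb3 differed by -0.24 (SE 0.13) and Ltbp2, a latent TGF-beta binding protein relative, by -0.59 (SE 0.28). Tgfb2 was the 1 gene of the partner lists with an unadjusted p under 0.05 by genotype, against 1.29% of all genes lower in STAP-2-/- and 0.797% higher.

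Markers of the cells that make collagen, and of other cells of the gut wall, were measured beside it. All 7 fibroblast markers had a lower mean in STAP-2-/-, with a median of -0.55 in pool 2 and -0.099 in pool 1. Their summed level, on the linear scale relative to the 75th percentile, was 57.6 and 48.7 in STAP-2-/- pools 1 and 2, against 62.7 and 65.8 in WT pools 1 and 2, and all 7 were well above background. In this sum, most of which comes from Dcn, WT 2 was the highest and STAP-2-/- 2 the lowest of the 4. By gene, WT 2 was the highest array for 4 of the 7 fibroblast markers (19.4% of all genes). All 6 smooth muscle markers also had a lower mean, but their median was -0.072 in pool 2 and -0.16 in pool 1, and their summed level was 207 and 222 in STAP-2-/-, against 247 and 253 in WT. Endothelial markers numbered 2 lower and 2 higher, leukocyte markers 2 and 2, and colon epithelium markers 4 and 3. Tested markers of skeletal muscle numbered 1 lower and 3 higher, those of cartilage 0 and 2, and those of squamous epithelium 1 and 3. For skeletal muscle, cartilage and squamous epithelium the median pool differences were -0.51, -0.25 and -0.35. Of 5 adipocyte markers 4 had a lower mean in STAP-2-/-, with a median of -0.48 in pool 2 and -0.73 in pool 1. Their summed level was 11.3 and 6.82 in STAP-2-/- pools 1 and 2, against 18.0 and 10.1 in WT pools 1 and 2. All 5 were also lower in pool 2 than in pool 1, with a median of -0.96, and 4 of them had an unadjusted p under 0.05 (14.4% of all genes). All 4 markers of enteric glia and all 4 of enteric neurons had a lower mean in STAP-2-/-, with medians of -0.31 and -0.28. The glial sum was 0.927 and 1.14 in STAP-2-/-, against 1.25 and 1.40 in WT, and the neuronal sum was 1.43 and 1.74 in STAP-2-/-, against 1.83 and 1.97 in WT. None of these markers passed an adjusted p of 0.05 by limma. The part of these cells in the collagen differences was not tested.

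**Figure D4:**
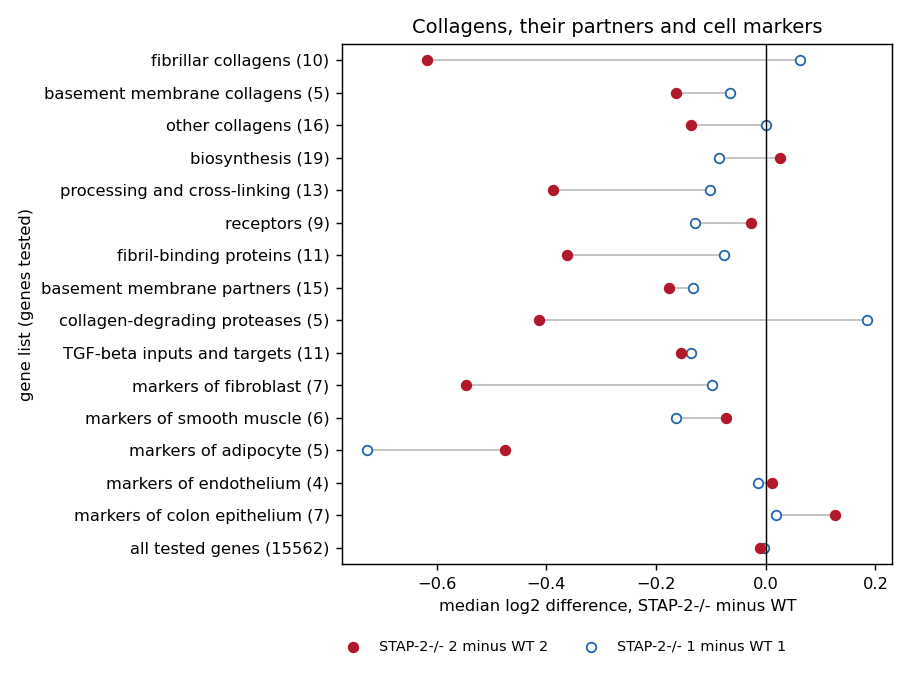
Median log2 difference of STAP-2-/- minus WT within pool 2 (filled) and within pool 1 (open) for the collagen types, their partner genes, markers of cell types and all tested genes, with the number of genes tested in brackets. Fibrillar collagens and fibroblast markers have the lowest pool 2 medians, -0.62 and -0.55, with pool 1 medians of 0.063 and -0.099, whereas all genes lie at -0.011 and -0.0025.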

How the data were processed

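The deposited files hold, per the file headers, a processed intensity for every spot, from which local background was subtracted and which was detrended on its own array, with no scaling across arrays. The scanner software was Agilent Feature Extraction 10.7.1.1 (per the submitters' processing notes). The authors' deposited value table is a ratio, the processed signal over 1 constant per array (within 1% for at least 99.97% of the probes compared), and served as an alternative. Whether mice of equal pool number shared anything is not given in the sources used here.

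From the log2 processed signal, that of each array's 75th percentile was subtracted, neither controls nor outlier-flagged spots were kept, and the remaining spots of each probe were averaged. A RefSeq table (GRCm38.p6) named 27427 of the 39429 probes, for 20832 genes. The file headers name another build (mm9), so this gene table served for names, chromosomes and neighbours, and the promoter windows of the same RefSeq build were joined to genes by symbol. The arrays carried 43020 non-control spots, of which 68.4% to 70.5% were well above background, and their number, 2 per genotype, limits the precision. A fit used limma 3.58.1 in R 4.3.3 over 15562 genes with Benjamini-Hochberg adjustment, by genotype alone or with pool number beside it, and was tested on simulated data. Differences are STAP-2-/- minus WT, or pool 2 minus pool 1.

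The members and lists were chosen with earlier results of these data known. Named genes were 16 chosen collagens, of which Col12a1 had no named probe, with those of the 4 smallest genotype p-values and the 2 highest pool differences each way per type, and 3 genes per partner list. Further members and genes are named to account for the family or where the text says so. Files were read with pandas 2.3.3 under Python 3.11.15, and figures made with matplotlib 3.10.9.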

Additional observations from a re-analysis of the deposited data

Results flagged for a closer look

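For 12 of the 31 tested collagens pool 2 lay above pool 1 in 1 genotype and below it in the other, which was so for 38.7% of the collagens and 22.7% of all tested genes. With 1 array per pool and genotype, none of these differences between genotypes was tested. The pool difference in STAP-2-/- minus that in WT was -0.99 for Col5a3, -0.78 for Col1a2, -0.77 for Col11a2, -0.73 for Col16a1, -0.61 for Col5a2 and -0.58 for Col14a1. It was -0.55 for Col6a2, -0.44 for Col6a1, -0.34 for Col4a5 and -0.33 for Col20a1. It was positive for Col25a1 (0.59) and Col8a1 (1.53).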

How the results depend on the processing

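No collagen and no partner gene passed an adjusted p of 0.05 by genotype, and no collagen by pool, under any alternative run that gave a test. The median collagen difference by genotype ran from -0.28 (without WT 1) to -0.0033 (without WT 2). At an unadjusted p under 0.05, collagens by genotype numbered 0 under each setting that kept all 4 arrays. By pool they numbered 7 in the main fit, 5 higher in pool 2 (10.4% of all genes) and 2 lower (14.4% of all genes). They numbered 11 with no filter on dim probes and 4 without a genotype term. The share of all genes under these 2 settings is not given here, so these counts say nothing particular to collagens. With the replicate number as a block, 0 collagens passed. The genotype median stayed at -0.14, since in this balanced design the block cannot change a genotype difference. As a check of that pairing, same-numbered arrays deviated from their group means with a correlation of 0.63 over 15140 genes, with only 2 such pairs. The counts below were added after seeing the data. Tested collagens with a mean below WT numbered 16 to 24 with 1 array left out, and fibrillar ones 4 to 9, each lowest without WT 2. The 1.5-fold counts in pool 1 were 2 for all and 0 for fibrillar collagens with normexp on the median spot intensity, and 0 for fibrillar ones with the authors' value table. With dim values at the lowest signal well above background, 1 collagen in place of 2 was at least 1.5-fold higher in STAP-2-/- 2 than in WT 2. Signs turned for Col9a2 by genotype (0.028, normexp) and Col14a1 by genotype (0.013, mean of probes). By pool they turned for Col11a2 (0.054 with quantile, 0.023 with normexp), Col6a2 (0.040, median scaling) and Col4a6 (-0.017 with normexp, -0.11 with the mean of probes). With 1 array left out, genotype differences spanned 0 for Col1a1 (-0.96 to 0.145), Col3a1 (-0.79 to 0.20), Col5a1 (-0.68 to 0.046), Col4a1 (-0.53 to 0.26), Col4a2 (-0.39 to 0.15), Col18a1 (-0.78 to 0.011), Col6a2 (-0.27 to 0.030), Col6a4 (-0.46 to 1.18), Col7a1 (-0.32 to 0.30), Col9a2 (-0.24 to 0.23), Col11a2 (-0.31 to 0.21), Col14a1 (-0.44 to 0.077) and Col23a1 (-0.88 to 0.41). These genotype fits set the 1 array left in a genotype against both arrays of the other. They hold no pool term, so part of the pool difference enters them. Other causes of these changes were not tested. The planned mean spot intensity was not used, the median taking its place.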
